A study of Marchantia polymorpha and Arabidopsis thaliana and Oryza sativa Japonica Group with 80 samples.

Results

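The 100 rice genes described here had more reads 2 h after the start of the treatment than before it, and had come back close to the starting level by 24 h. They were chosen by a score, the difference between the 2 h and 0 h means of log2(CPM + 1) minus the absolute difference between the 24 h and 0 h means, where CPM is the number of reads of a gene per 1000000 counted reads of the library. Eligible were 16540 rice genes that averaged at least 5 CPM at 2 h. Of the 91080 features in the rice table, 37830 carry rice gene identifiers, and 6 of these were set aside by the rule before ranking; 5 of the 6 would have scored high enough to enter. The 100 highest scores, 0.605% of the eligible genes, make up the group. Because the 2 h and 24 h values chose the members, those values are given as a description and carry no test.

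Whole seedlings of the wild-type line labelled NB, 7 days old, were grown on plates of half-strength Murashige and Skoog medium under 16 h of light and 8 h of dark. RNA was sequenced from 3 libraries each at 0, 2 and 24 h, 9 in all. The treatment protocol names 100 mM NaCl for the series; its list of times does not include 2 h, while the series design text and the sample titles do. The deposited condition sheet writes the same code, Cnt, for all 9 rice libraries and does not name salt. No untreated library was analysed at 2 h or 24 h, and under the light cycle 0 h and 24 h fall at the same hour of the day while 2 h does not. Salt, handling and time of day therefore cannot be told apart in any 2 h difference. Nothing in the labels says whether the 3 libraries of a time came from separate seedling pools beyond the design text's mention of biological replicates.

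When roots meet salt, plants respond first to the loss of water potential and only later to sodium that has built up in the tissue. Many early messenger RNAs in such responses rise within minutes to hours and then decline. Among the genes known to be induced by the hormone abscisic acid (ABA) are brakes on its own signalling, the clade A type 2C protein phosphatases (PP2Cs), which inactivate the SnRK2 kinases until ABA-bound receptors capture them. Heat shock factors, which switch on chaperone genes, are another class with brief induction in plants.

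The libraries held 10142302 to 29473283 counted reads, and 1 read was worth 0.0339 to 0.0986 CPM. Replicate 1 of every time carries another library code and is shallower (10142302 to 11253903 reads) than replicates 2 and 3 (23888570 to 29473283). The 0 h replicate 3 library stood apart, with correlations of 0.917 to 0.964 with the other libraries over log2 CPM, against 0.963 to 0.991 among the rest. Without it, the members' median score was 0.780, against 0.799 with it, and all 100 members still scored above 0. The files do not pair identifiers with gene names, and no rice annotation was used. Members are therefore given by identifier, except 3 that belong to gene lists, whose names are used. The lists were named from general knowledge of rice nomenclature and drawn up with earlier results of these data known. CPM is not divided by transcript length, so levels are compared between times and not between genes.

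As a group the members took 2767 CPM, 2694 CPM and 2377 CPM of the 3 libraries at 0 h, 5649 CPM, 5432 CPM and 5979 CPM at 2 h, and 3168 CPM, 2755 CPM and 3101 CPM at 24 h. Their summed level at 2 h thus lay above every 0 h and every 24 h library, and 2 of the 3 libraries at 24 h lay above every 0 h library. For the single member, the median difference from 0 h in mean log2(CPM + 1) was 1.08 at 2 h (range 0.56 to 4.29) and 0.11 at 24 h (range -0.60 to 1.17). Over all eligible genes these medians were 0.036 and 0.022. On the linear scale, 60 members had over 2 times their 0 h mean CPM at 2 h and 16 had over 4 times, with a median ratio of 2.27.

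**Figure D1:**
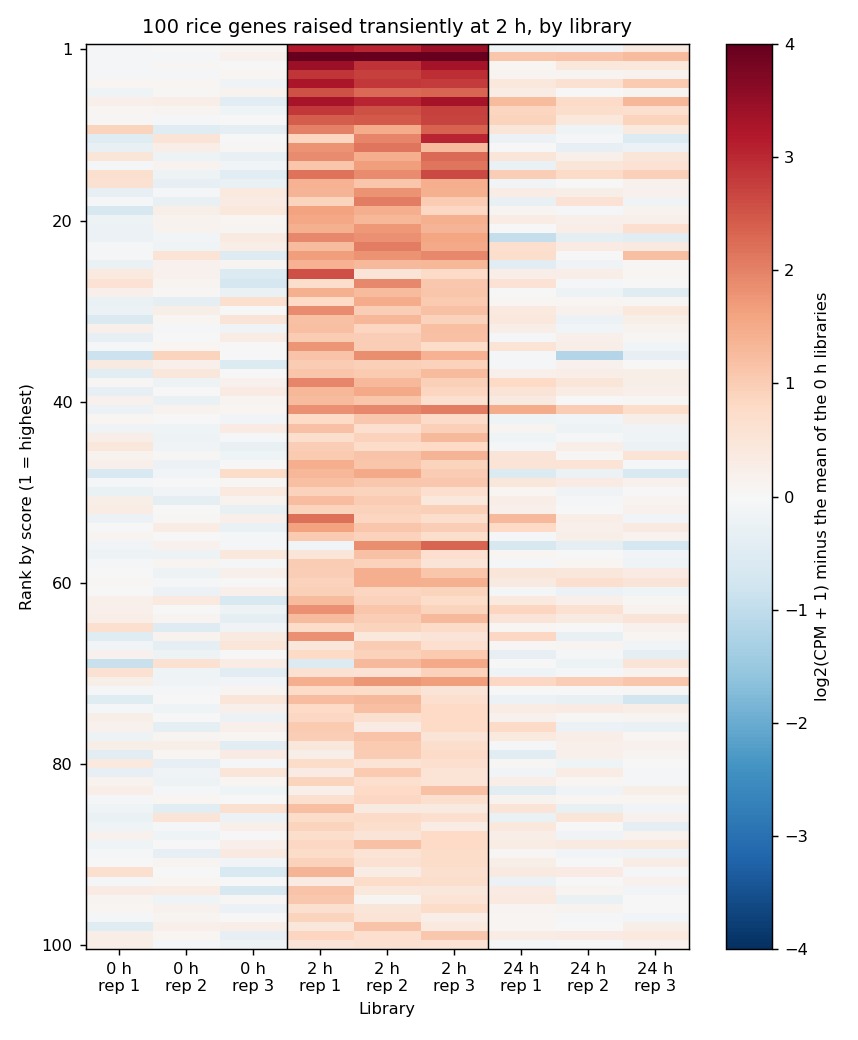
Level of each of the 100 members (rows, by rank of the score) in each of the 9 libraries (columns), as log2(CPM + 1) minus the mean of the gene's 0 h libraries. Red at 2 h fills nearly all rows in all 3 libraries, is darkest in the first 9 rows, and a few rows are red in a single 2 h library.

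All 3 libraries at 2 h exceeded all 3 at 0 h in 90 members, against 10.5% of the eligible genes, and exceeded all 3 at 24 h in 91 members, against 17.2%. In 86 members the 2 h libraries exceeded all 6 others, against 2.88% of eligible genes, and without 0 h replicate 3 this held for 89. The rule used these contrasts, so the counts only describe how cleanly the selected genes separate. None of the 14 members with overlap was among the 20 highest scores. In the fit across all genes (edgeR quasi-likelihood test, Benjamini-Hochberg adjusted p below 0.05), 46 members were called higher at 2 h, beside 0.596% of the 24999 genes tested (0.912% in either direction), and 8 at 24 h, beside 4.3% (8.59% in either direction); no member was called lower at 24 h, beside 4.28%, while 1 was lower at an unadjusted p below 0.05 and 1 by DESeq2. The same contrasts chose the members, and nothing is read from these counts. They also moved with the libraries used: 17 members were called at 2 h without 0 h replicate 2, 24 without 2 h replicate 2, 29 without 2 h replicate 1, 30 without 2 h replicate 3, and 13 without the 3 replicate 1 libraries. The count was 58 without 0 h replicate 1, 56 without 0 h replicate 3, 57 with no filter on low counts, 79 by DESeq2 and 16 with only the 2 groups in the fit.

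The highest score belonged to OS10G0497700, with 5.94, 6.33 and 6.71 CPM at 0 h, 66.6, 59.1 and 78.0 CPM at 2 h, and 5.62, 5.73 and 8.33 CPM at 24 h. It was 10.7 times its 0 h mean at 2 h, and its 24 h libraries lay on both sides of the 0 h range. Reads counted for it without regard to strand came to 2.46% of those in the combined table, and on that count its score was 1.04 instead of 3.20. That score was above the 0.522 of the last gene chosen on that count. The gene did not reach the required 5 CPM at 2 h there, so it was not chosen. OS03G0820500 had the largest 2 h difference of all members, with 0.556, 0.546 and 0.858 CPM at 0 h, 31.8, 27.3 and 35.3 CPM at 2 h, and 2.56, 2.59 and 2.97 CPM at 24 h. It was 48.2 times its 0 h mean at 2 h, and its 24 h libraries still lay above all 0 h libraries.

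A few members were close to silent before treatment. OS11G0451700 had 0, 0.0728 and 0.0373 CPM at 0 h, 10.04, 6.67 and 9.30 CPM at 2 h, and 0.0986, 0.375 and 0.377 CPM at 24 h. Pooled over libraries it had 567 reads at 2 h and 3 at 0 h, a ratio of 182 after scaling to depth (exact 95% interval 61.8 to 883, counting error only). OS01G0644200 had 0, 0 and 0.0746 CPM at 0 h, 6.4, 5.78 and 6.96 CPM at 2 h, and 0.0986, 0.102 and 0.126 CPM at 24 h. Its 433 reads at 2 h against 2 at 0 h gave a ratio of 208 (57.2 to 1723). At 24 h it was again at or below 0.126 CPM, under or near the 3 reads per library (0.102 to 0.296 CPM) that a count of 0 still allows. OS05G0381400 had 0.0927, 0.0364 and 0.0746 CPM at 0 h, 4.71, 4.82 and 5.90 CPM at 2 h, and 0.986, 0.444 and 0.963 CPM at 24 h, so its 24 h libraries lay above all 0 h libraries and below all 2 h libraries.

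Other members of the 10 highest scores had the same shape. OS05G0373900 had 0.556, 0.546 and 0.336 CPM at 0 h, 13.2, 9.41 and 9.33 CPM at 2 h, and 0.986, 1.23 and 2.05 CPM at 24 h. OS02G0824500 had 2.32, 2.87 and 3.17 CPM at 0 h, 21.1, 17.1 and 17.7 CPM at 2 h, and 3.65, 2.73 and 3.10 CPM at 24 h. The 2 h libraries of both genes stood clear of the other 6, and for OS02G0824500 the 24 h and 0 h libraries overlapped.

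OS09G0109600 had 1.58, 1.71 and 0.634 CPM at 0 h, 21.2, 17.6 and 21.5 CPM at 2 h, and 4.44, 2.87 and 4.60 CPM at 24 h. OS11G0498600 had 3.62, 3.78 and 2.91 CPM at 0 h, 30.3, 25.0 and 28.4 CPM at 2 h, and 7.00, 6.25 and 6.07 CPM at 24 h. In both, the groups did not overlap at any time, and the 24 h libraries lay between the 0 h and 2 h ones.

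The replicates parted more widely further down. OS08G0298700 had 7.42, 2.26 and 2.5 CPM at 0 h, 17.4, 11.7 and 22.6 CPM at 2 h, and 5.42, 3.07 and 4.98 CPM at 24 h. OS03G0432100 had 4.54, 10.3 and 6.68 CPM at 0 h, 13.2, 29.2 and 63.5 CPM at 2 h, and 5.72, 6.62 and 4.31 CPM at 24 h. OS04G0612500 had 40.3, 60.9 and 51.6 CPM at 0 h, 176, 226 and 122 CPM at 2 h, and 50.1, 39.8 and 42.8 CPM at 24 h. The 2 h libraries were the highest 3 in each of these genes, but in OS03G0432100 the top one had over 2 times the reads of the next.

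**Figure D2:**
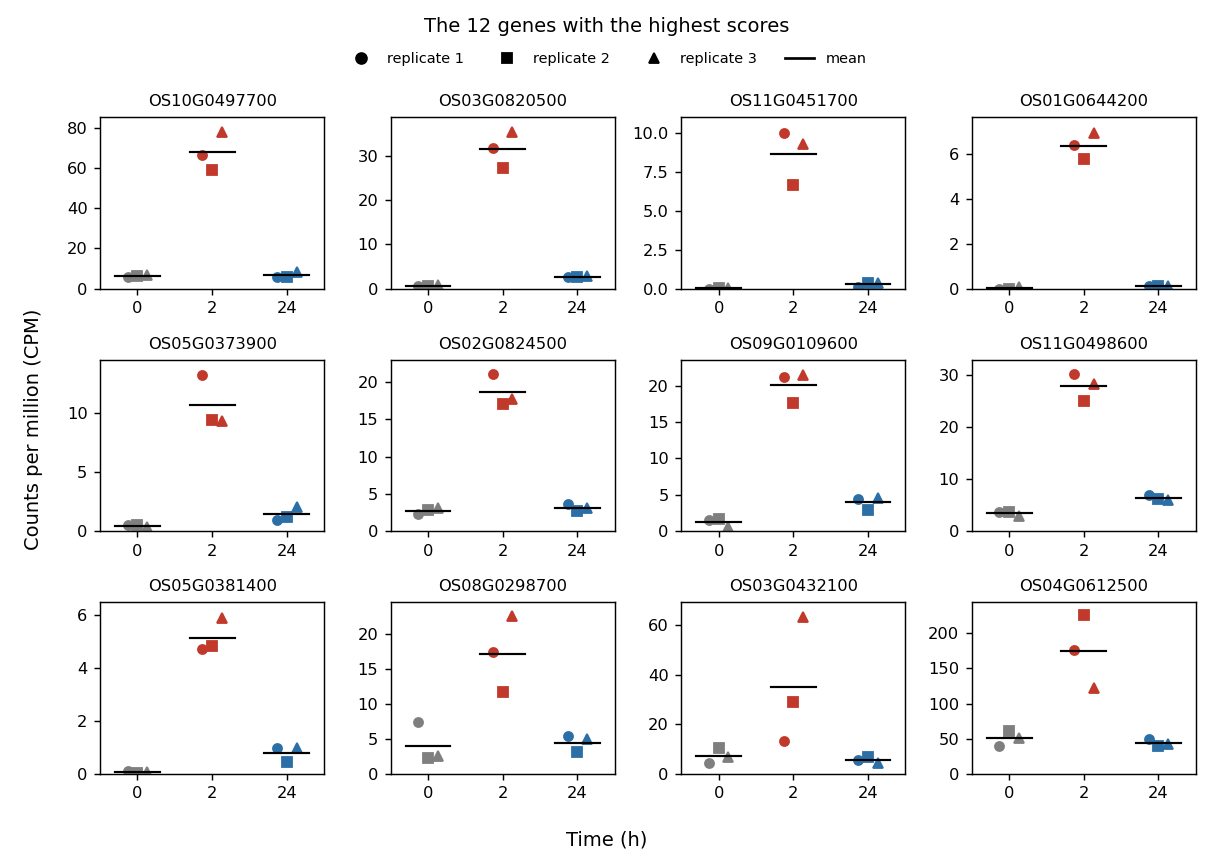
CPM in each library (symbols by replicate, bars for the mean of 3) at 0, 2 and 24 h for the 12 highest scores. In all 12 panels the 3 libraries at 2 h lie above the other 6, and in OS03G0432100 they spread from 13.2 to 63.5 CPM.

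The remaining 8 of the 20 highest scores had 2 h means of 2.83 to 4.96 times their 0 h means. At 2 h, OS02G0669100 averaged 279 ± 76.7 CPM (SD, n = 3 here and below), against 75.8 ± 24.3 CPM at 0 h, and OS08G0465800 averaged 217 ± 58.3 CPM, against 46.7 ± 19.6 CPM. Both rank among the 5 members with the most reads at 2 h, and in both the highest library was replicate 3 at 2 h and replicate 1 at 0 h. OS09G0555500 averaged 19.7 ± 3.40 CPM at 2 h, against 6.30 ± 1.91 CPM at 0 h, and OS03G0377700 averaged 33.4 ± 2.34 CPM, against 11.8 ± 1.55 CPM. The other 4, OS09G0378700, OS09G0425200, OS08G0473900 and OS07G0290200, averaged 5.62 to 8.04 CPM at 2 h, against 1.28 to 2.45 CPM at 0 h, and their 2 h means were 3.16 to 4.96 times the 0 h means.

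The size of the 2 h rise fell off with the level at the start. The 6 members below 1 CPM at 0 h had a median ratio of 61.9, the 51 members from 1 to 10 CPM a median of 2.65, the 40 members from 10 to 100 CPM a median of 1.90, and the 3 members above 100 CPM a median of 1.65. The requirement of 5 CPM at 2 h admits a gene from below 1 CPM only at a ratio above 5, so the rule itself sets part of this gradient. Members began lower than eligible genes in general, with a median 0 h mean of 7.32 CPM, against 27.7 CPM. At 2 h these medians were 18.98 CPM and 27.9 CPM.

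The 3 members above 100 CPM at 0 h include the 3 with the most reads at 2 h. OS01G0279100 had 745, 788 and 595 CPM at 0 h, 1110, 977 and 1182 CPM at 2 h, and 757, 772 and 708 CPM at 24 h. OS03G0655400 had 247, 370 and 178 CPM at 0 h, 808, 893 and 971 CPM at 2 h, and 416, 252 and 591 CPM at 24 h. OS03G0276500 had 202, 137 and 207 CPM at 0 h, 369, 222 and 312 CPM at 2 h, and 304, 152 and 148 CPM at 24 h. In the first and second of these the 2 h libraries stood above all others, while in OS03G0276500 the 24 h replicate 1 library (304 CPM) lay above the 2 h replicate 2 library (222 CPM). These 3 genes carried much of the group's reads. Without the 3 highest members of each library, the rest summed to 1396 to 1572 CPM at 0 h. At 2 h the rest summed to 3337 to 3469 CPM, and at 24 h to 1580 to 1690 CPM. The 3 left out were the genes above in all but 2 libraries. OS04G0612500 took the place of OS03G0276500 in 2 h replicate 2, and OS02G0669100 did so in 2 h replicate 3.

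The return by 24 h was close in most members and incomplete in some. In 33 members the 24 h mean lay within 0.1 of the 0 h mean on the log2(CPM + 1) scale, and the median member kept 12.5% of its 2 h difference at 24 h. The 24 h mean was above the 0 h mean in 75 members and below it in 25. It was above by over 0.5 in 12 and below by over 0.5 in 3. Every 24 h library exceeded every 0 h library in 21 members, against 20.3% of eligible genes, and lay below every 0 h library in 2, against 16.9%; the rule limits both.

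On the log2(CPM + 1) scale, only OS06G0146800 and OS04G0244800 kept over 50% of their 2 h difference. This count depends on the scale. In the edgeR fit, OS05G0381400 had log2 fold changes of 6.244 at 2 h and 3.502 at 24 h, so there it also kept over 50%. OS06G0146800 had 0.464, 0.873 and 0.821 CPM at 0 h, 5.06, 5.45 and 6.01 CPM at 2 h, and 3.75, 2.46 and 1.76 CPM at 24 h. OS04G0244800 had 52.2, 40.3 and 40.5 CPM at 0 h, 123, 154 and 141 CPM at 2 h, and 79, 88.9 and 96.7 CPM at 24 h. The 3 times did not overlap in either gene, and their order was 0, 24 and 2 h. The opposite was seen in OS03G0718800, which had 1.58, 1.86 and 2.91 CPM at 0 h, 10.6, 9.93 and 8.21 CPM at 2 h, and 0.592, 1.33 and 1.21 CPM at 24 h, below its starting level in every library.

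**Figure D3:**
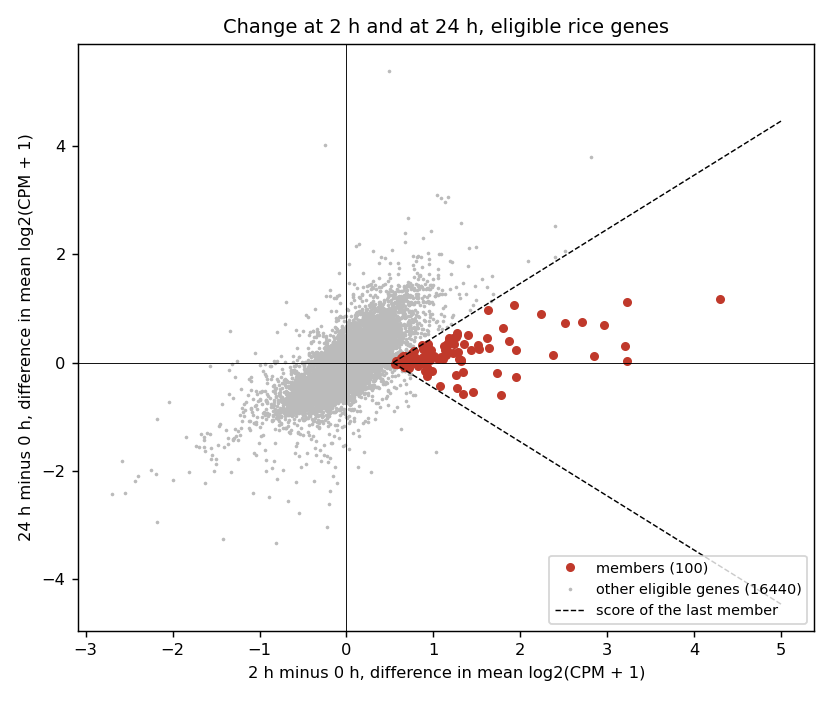
Difference in mean log2(CPM + 1) from 0 h at 2 h (horizontal) and at 24 h (vertical) for the 16540 eligible genes, with the 100 members in red and dashed lines at the score of the last member. Members spread to 4.29 on the horizontal axis and stay between -0.60 and 1.17 on the vertical axis, while other genes lie mostly along the diagonal.

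The scores trailed off without a gap at the threshold. Only 7 members scored above 2, 23 scored from 1 to 2 and 70 scored 1 or less. The last members were OS01G0170000, OS08G0557600 and OS07G0679000, and the last of them, at a score of 0.536, averaged 27.7 CPM at 2 h, against 18.5 CPM at 0 h. The first genes outside were OS07G0194351 (0.534), OS02G0618400 (0.533) and OS10G0552400 (0.530). OS07G0194351 averaged 12.7 CPM at 2 h, against 7.79 CPM at 0 h. A further 60 rice genes below 5 CPM at 2 h scored at least as high as the last member. The mirror image was thinner: of 16588 genes with at least 5 CPM at 0 h, 49 fell at 2 h and came back with a mirrored score at or above that of the last member, and the highest was 1.51.

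Selection on 6 libraries and a look at the other 3 gave values that the choice had not used. When replicate 1, 2 or 3 of every time was left out of the selection, 75, 76 and 75 of the 100 genes chosen were members. In the left-out libraries the 2 h library was the highest of the 3 times in 87, 90 and 85 of the chosen 100, against 33.6%, 33.3% and 22.6% of eligible genes. The score was above 0 there in 81, 85 and 68, against 26.0%, 22.3% and 19.4%. The median score in the left-out libraries was 0.550, 0.736 and 0.460, below the 0.766, 0.738 and 0.866 in the libraries used. For the 20 highest scores of each selection, the left-out 2 h library was the highest in 19, 20 and 20.

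**Figure D4:**
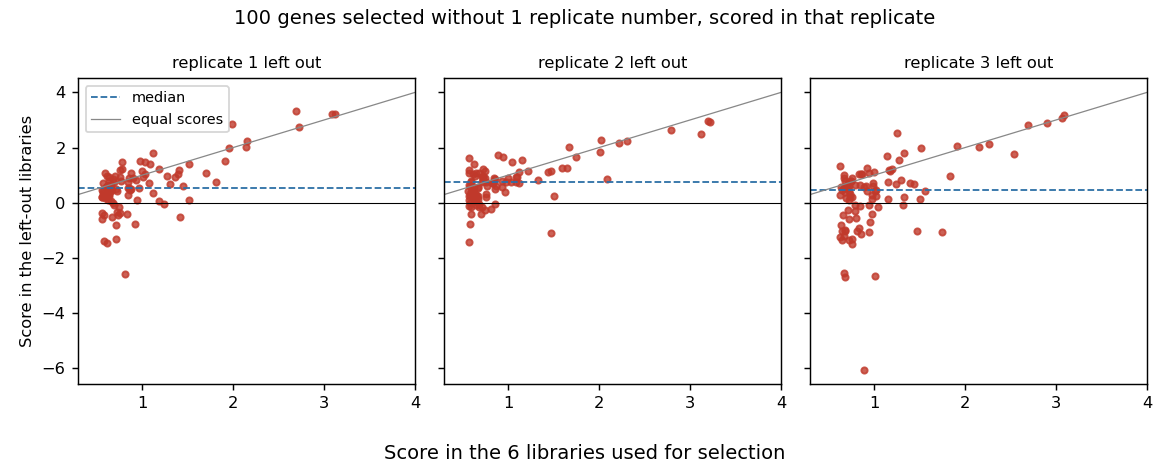
Score in the 3 left-out libraries (vertical) against the score in the 6 libraries used for selection (horizontal) for the 100 genes chosen without replicate 1, 2 or 3, with the grey line at equal scores and the dashed line at the median (0.550, 0.736 and 0.460). Genes that scored above 2 in the selection stayed above 0 when left out, and genes near the threshold scattered on both sides of 0.

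Within a time, members had a higher median spread than eligible genes in general at 2 h and 24 h. The median SD of log2(CPM + 1) among the 3 libraries was 0.249 for members at 0 h, 0.243 at 2 h and 0.166 at 24 h. For eligible genes in general it was 0.244, 0.153 and 0.103 at these times. The comparison was not matched for level. The median mean level of members was 18.98 CPM at 2 h and 7.14 CPM at 24 h, against 27.9 CPM and 27.4 CPM for eligible genes. The shallow replicate 1 library was the highest of the 2 h libraries in 42 members, against 32.6% of eligible genes, and the highest of the 24 h libraries in 50, against 40.4%. Depth, library code and replicate number go together there and cannot be told apart. In 5 members, the top 2 h library had over 2 times the CPM of the next: OS03G0432100, OS08G0473900, OS02G0208300, OS08G0249000 and OS05G0407100.

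Members whose 2 h value rests on some of the libraries include OS02G0208300, with 3.80, 3.09 and 1.49 CPM at 0 h, 20.8, 4.22 and 5.26 CPM at 2 h, and 3.35, 3.38 and 2.89 CPM at 24 h. OS08G0249000 had 18.9, 6.93 and 6.14 CPM at 2 h, against 2.69, 3.46 and 3.99 CPM at 0 h, and 9.56 CPM in replicate 1 at 24 h. OS05G0407100 had 13.2, 4.33 and 4.72 CPM at 2 h, against 1.85, 3.42 and 4.14 CPM at 0 h. In all 3 genes replicate 1 was the high library at 2 h. The reverse held in OS10G0204400, with 2.40, 12.3 and 17.4 CPM at 2 h, against 2.41, 3.13 and 2.61 CPM at 0 h, where replicate 1 did not differ from the 0 h libraries. OS02G0802500 was alike, with 6.4, 25.6 and 30.2 CPM at 2 h, against 4.82, 15.4 and 12.2 CPM at 0 h.

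The deposited counts keep the strand opposite to the read, which held 84.3% to 85.9% of strand-assigned reads. For 12 members the count without regard to strand was under 50% of the strand-specific one, as it was in 12.4% of eligible genes; reads of overlapping features on opposite strands may be lost from that count, and no annotation was used to look for them. In 3 members over 50% of the reads lay on the other strand. These other-strand reads came to 13.4, 19.9 and 12.6 CPM at 2 h in OS10G0204400, against 12.1, 13.9 and 19.1 CPM at 0 h, and to 12.1, 15 and 12.0 CPM at 2 h in OS01G0248500, against 8.53, 13.8 and 17.3 CPM at 0 h. In OS02G0208300 they came to 19.6, 17 and 20.5 CPM at 2 h, against 23.8, 17.3 and 5.97 CPM at 0 h. The other-strand reads at 2 h and 0 h thus overlapped in all 3. By contrast, the reads the rule used did not overlap in OS02G0208300 or OS01G0248500. In OS01G0248500 they came to 8.97, 9.97 and 10.8 CPM at 2 h, against 5.47, 4.00 and 4.85 CPM at 0 h. For OS02G0208300 the count without regard to strand was 0% of the strand-specific one.

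By the chromosome number written in each identifier, members lay on all 12 chromosomes, with 15 on chromosome 1, 14 on chromosome 3 and 4 on chromosome 12. Chromosome 9 had the largest share of its eligible genes among the members (0.912%) and chromosome 6 the smallest (0.389%). Identifiers rise along a chromosome, and 6 pairs of members were no more than 10 eligible genes apart in that order. How many such pairs as many randomly drawn eligible genes would give was not computed, so no clustering is read from this count. Only OS01G0128100 and OS01G0128200 were direct neighbours: the first had 22.2, 20.6 and 17.4 CPM at 2 h, against 11.2, 10.2 and 9.73 CPM at 0 h, and the second 25.4, 39.1 and 30.5 CPM at 2 h, against 21.8, 21.6 and 13.2 CPM at 0 h. The second is one of the 12 members whose count without regard to strand was under 50% of the one used. The pair OS10G0204400 and OS10G0205700 was 3 steps apart, and their 2 h libraries differed in pattern, with 5.60, 10.2 and 6.85 CPM at 2 h in OS10G0205700, against 1.58, 1.42 and 2.24 CPM at 0 h. The other 4 pairs were OS01G0583100 with OS01G0585100, OS03G0718800 with OS03G0720300, OS01G0955000 with OS01G0957800, and OS02G0823100 with OS02G0824500.

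Of 110 genes in 11 lists, 3 were members, and 2 of these encode PP2Cs. Members made up 0.605% of eligible genes, and not all of the 110 were eligible. PP2C08 (OS01G0656200) ranked 21st, with 1.39, 2.11 and 2.09 CPM at 0 h, 6.58, 8.52 and 6.34 CPM at 2 h, and 1.87, 2.42 and 3.56 CPM at 24 h. PP2C06 (OS01G0583100) ranked 74th, with 35.4, 32.8 and 42.6 CPM at 0 h, 64.6, 85.9 and 64.8 CPM at 2 h, and 45.7, 46.4 and 43.9 CPM at 24 h. The 2 h libraries of both were above all 6 others, and at 24 h PP2C06 was above every 0 h library while PP2C08 overlapped 0 h. The count of PP2C08 without regard to strand was 26.8% of the one used.

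The other genes of the ABA list were tested, since they are not members. This list and the others below were drawn up with earlier results of these data known, which limits what their tests can show. Of 12 tested, 3 were called higher at 2 h and none lower, beside 0.596% and 0.316% of all genes tested, and 3 were called higher at 24 h and none lower, beside 4.3% and 4.28%. At an unadjusted p below 0.05, 8 were higher and 1 lower at 2 h and 7 higher at 24 h, and DESeq2 called 6 higher at 2 h and 5 at 24 h. These 12 genes had a median log2 fold change of 1.22 at 2 h and 0.67 at 24 h, where the median of all genes was -0.01 at both times. PP2C30 (OS03G0268600) had 1.11, 1.24 and 0.97 CPM at 0 h, 4.09, 3.96 and 2.95 CPM at 2 h, and 2.17, 2.29 and 2.26 CPM at 24 h. Its log2 fold change was 1.69 ± 0.22 (SE) at 2 h (edgeR quasi-likelihood test, adjusted p = 0.00889) and 1.01 ± 0.23 at 24 h (adjusted p = 0.0265). PP2C49 (OS05G0537400) had 5.01, 4.48 and 4.10 CPM at 0 h, 9.77, 8.67 and 9.36 CPM at 2 h, and 7.79, 6.49 and 6.53 CPM at 24 h. It was called at 2 h (log2 fold change 1.02 ± 0.16, edgeR adjusted p = 0.0197) and narrowly at 24 h (0.61 ± 0.16, edgeR adjusted p = 0.0491). The third gene called at 24 h was ABA8OX2 (0.64 ± 0.16, edgeR adjusted p = 0.0418), for an ABA breakdown enzyme. Both PP2C genes had their highest level at 2 h and stayed above every 0 h library at 24 h. PP2C49 scored 0.375, under the last member, and PP2C30 was below 5 CPM at 2 h.

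NCED3 (OS03G0645900), which encodes a 9-cis-epoxycarotenoid dioxygenase at the committed step of ABA synthesis, was called higher at 2 h from few reads. It had 0.28, 0.07 and 0.15 CPM at 0 h, 0.53, 1.67 and 1.09 CPM at 2 h, and 0.69, 0.34 and 0.46 CPM at 24 h, with a log2 fold change of 2.94 ± 0.55 at 2 h (edgeR adjusted p = 0.0441). The 2 h libraries lay above all 0 h libraries and overlapped those at 24 h. PP2C09 missed the threshold at 2 h (1.22 ± 0.24, edgeR adjusted p = 0.0553), as did NCED5 (3.66 ± 0.83, adjusted p = 0.0834) and PP2C68 (2.83 ± 0.70, adjusted p = 0.109). PP2C53 had the smallest change of the family, with 34.4, 40.1 and 38.4 CPM at 2 h, against 28.3, 31.7 and 38.6 CPM at 0 h (log2 fold change 0.17 ± 0.14, edgeR adjusted p = 0.624). The one lower at an unadjusted p was ABA8OX1 (OS02G0703600), for another ABA breakdown enzyme, with 12.2, 46.6 and 44.1 CPM at 2 h, against 56.8, 101 and 143 CPM at 0 h (log2 fold change -1.56 ± 0.58, edgeR adjusted p = 0.288). Every 2 h library of ABA8OX1 lay below every 0 h library, and its count without regard to strand was 3.48% of the one used. ABA8OX1, ABA8OX2, PP2C09, NCED5, PP2C68 and PP2C53 were chosen after their values were seen. PP2C30 kept its 2 h call without any one library (adjusted p 0.0138 to 0.0480) and lost it without the 3 replicate 1 libraries (adjusted p = 0.110). PP2C49 lost the 2 h call without any one of 0 h replicate 2, the 2 h libraries, or 24 h replicate 2 or 3, and NCED3 without any one of 0 h replicate 2 or 3, 2 h replicate 2 or 3, or the 24 h libraries. Over the libraries left out in turn, the adjusted p ranged from 0.0183 to 0.0936 for PP2C49 and from 0.0335 to 0.170 for NCED3. At 24 h PP2C30 lost the call without any one of 0 h replicate 2 or 3 or the 24 h libraries (adjusted p 0.0275 to 0.108), and PP2C49 without any one library but 0 h replicate 1 (0.0290 to 0.152).

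**Figure D5:**
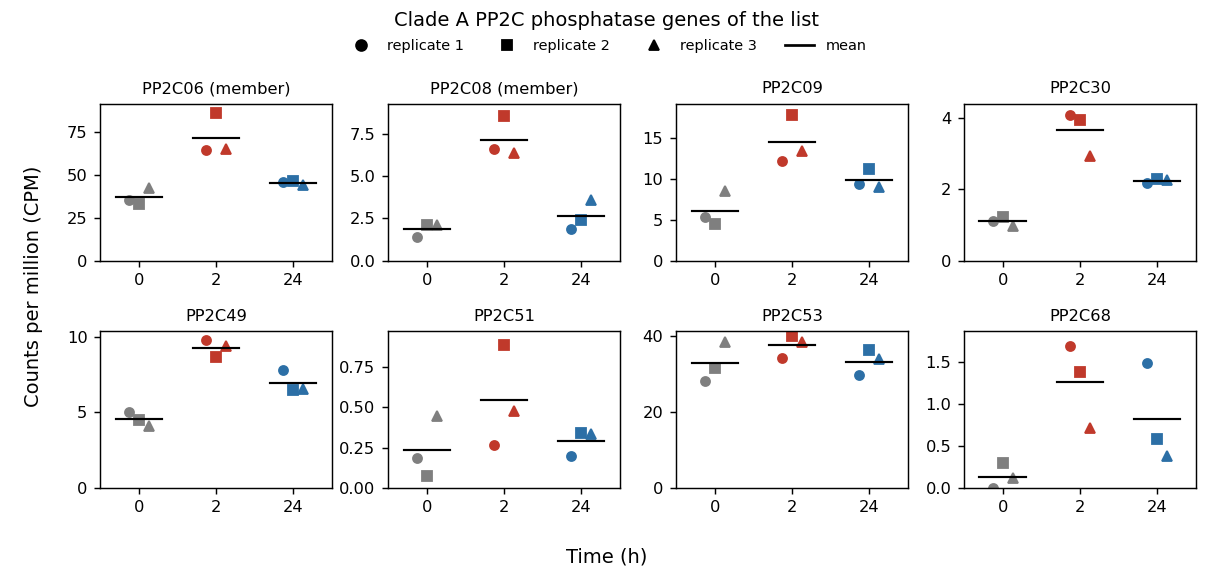
CPM in each library (symbols by replicate, bars for the mean of 3) at 0, 2 and 24 h for the 8 PP2C genes of the list that entered the fit. The mean is highest at 2 h in all 8 panels; the 2 h libraries of PP2C51 and PP2C53 overlap those of 0 h.

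The third list gene in the group was HSFA2D (OS03G0161900), a class A heat shock factor, at rank 63. It had 19.7, 17.4 and 14.6 CPM at 0 h, 63.4, 37.9 and 32.4 CPM at 2 h, and 31.8, 26.9 and 18.9 CPM at 24 h. All 2 h libraries stood above the rest, with replicate 1 the highest at each time. HSFA2D was not among the members called at 2 h or 24 h by edgeR. None of the 11 other heat shock factors tested was called at 2 h or 24 h by edgeR. At 2 h, 4 of them were higher and 1 lower at an unadjusted p below 0.05, and DESeq2 called 3 higher; at 24 h these counts were 2, 1 and 1. HSFA2E (OS03G0795900), the one with the most reads, averaged 44.9 ± 6.64 CPM at 2 h, against 35.7 ± 5.66 CPM at 0 h (log2 fold change 0.31 ± 0.16, edgeR adjusted p = 0.439). HSFA2A, chosen after its values were seen, had 0.835, 0.546 and 0.597 CPM at 0 h and 7.11, 1.56 and 2.27 CPM at 2 h. At 24 h it had 0.592, 0.785 and 0.293 CPM, so every 2 h library lay above every 0 h and 24 h library. Its score was above that of HSFA2D, but its 2 h mean of 3.65 CPM was below the required 5 CPM. It was not called at 2 h (log2 fold change 2.43 ± 0.61, edgeR adjusted p = 0.111).

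Other early stress regulators gave no edgeR call at 2 h in these libraries. None of 8 DREB and CBF factors, 14 WRKY factors, 6 stress NAC factors, 5 C2H2 zinc finger factors and 18 genes of jasmonate synthesis and its JAZ repressors was called by edgeR at 2 h in either direction, and none of the 51 was a member. Membership required a mean of 5 CPM at 2 h, which several of the 51 did not reach. Members made up 0.605% of eligible genes, so nothing is read from this absence. The median log2 fold change at 2 h was -0.82 for WRKY factors, -0.22 for NAC factors and -0.22 for jasmonate genes. For DREB and CBF factors it was -0.05, for C2H2 factors 0.65, and for all genes -0.01. At an unadjusted p below 0.05, 1 WRKY factor was higher, and 4 WRKY factors and 5 jasmonate genes were lower. DESeq2 called 1 WRKY factor higher, and 2 WRKY factors and 1 jasmonate gene lower. The factor higher at an unadjusted p was WRKY8 (log2 fold change 2.16 ± 0.48, edgeR adjusted p = 0.0768). WRKY8 had 0.711, 1.22 and 0.780 CPM at 2 h, against 0.185, 0.109 and 0.298 CPM at 0 h. At 24 h, 8 of the jasmonate genes were called lower, beside 4.28% of all genes tested. WRKY28 (log2 fold change -2.06 ± 0.48, edgeR adjusted p = 0.0305) and WRKY69 (-2.01 ± 0.48, edgeR adjusted p = 0.0347) were also called lower. NAC10 was called higher (1.71 ± 0.40, edgeR adjusted p = 0.0316), beside 4.3% of all genes tested. By reads, the leading gene of each list was DREB2B (43.0 ± 3.5 CPM at 2 h, against 39.5 ± 4.49 CPM at 0 h), WRKY53 (44.4 ± 29.7 CPM, against 70.6 ± 29.2 CPM), NAC6 (49.8 ± 17.1 CPM, against 60.1 ± 15.1 CPM), DST (29.9 ± 6.80 CPM, against 38.0 ± 14.9 CPM) and JAZ7 (235 ± 56.8 CPM, against 260 ± 39.1 CPM). Of these, WRKY53 shows how far replicates could part, with 13.3, 72.5 and 47.4 CPM at 2 h, against 55.1, 52.6 and 104 CPM at 0 h.

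Clock genes bear on the hour of sampling. None of 9 was called at 2 h or 24 h by edgeR, and none was a member, beside 0.605% of eligible genes. At an unadjusted p below 0.05, 3 were higher at 2 h and 2 at 24 h, and DESeq2 called 3 and 1 higher. GI (OS01G0182600), an evening gene of the plant clock, had 614, 611 and 505 CPM at 0 h, 761, 893 and 915 CPM at 2 h, and 671, 626 and 662 CPM at 24 h. Its 2 h libraries lay above those of both other times, as in 86 of the members and 2.88% of eligible genes. The log2 fold change of GI was 0.55 ± 0.14 (edgeR adjusted p = 0.113, DESeq2 adjusted p = 0.00388, range over all settings 0.00388 to 0.355). PRR73, chosen after its values were seen, had 431, 422 and 385 CPM at 2 h, against 302, 321 and 305 CPM at 0 h. With 353, 337 and 327 CPM at 24 h, its 2 h libraries also lay above all others (log2 fold change at 2 h 0.39 ± 0.11, edgeR adjusted p = 0.139). LHY, a morning gene chosen here after its values were seen, had 601, 525 and 470 CPM at 2 h, against 382, 342 and 265 CPM at 0 h (log2 fold change 0.66 ± 0.18, edgeR adjusted p = 0.141). Clock genes did not all rise at 2 h, and the list median log2 fold change was 0.24. Negative values were those of PRR95 (-0.37 ± 0.18), LUX (-0.21 ± 0.12), PRR1 (-0.19 ± 0.15) and PRR59 (-0.10 ± 0.13), none of them called. The part of the hour of the day in the members' values was not tested.

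Type A response regulators, which are induced by cytokinin and damp its signalling, moved the other way. Of 9 tested, 2 were called lower at 2 h and none higher, beside 0.316% and 0.596% of all genes tested. The list median log2 fold change was -0.88 at 2 h, against -0.01 for all genes. Only RR1 was called lower at 24 h (-0.89 ± 0.19, edgeR adjusted p = 0.0251), beside 4.28% of all genes tested. At an unadjusted p below 0.05, 6 were lower at 2 h and 5 at 24 h, and DESeq2 called 6 and 4 lower. RR4 (OS01G0952500) had 39.3, 48.5 and 43.3 CPM at 0 h, 21.4, 24.5 and 26.3 CPM at 2 h, and 28.8, 35.5 and 33.9 CPM at 24 h (log2 fold change at 2 h -0.88 ± 0.13, edgeR adjusted p = 0.016). RR9 (OS11G0143300) had 24.2, 18.8 and 21.6 CPM at 0 h, 8.00, 7.56 and 10.6 CPM at 2 h, and 10.7, 15.2 and 20.4 CPM at 24 h (-1.31 ± 0.24, edgeR adjusted p = 0.0414). In both, every 2 h library lay below every 0 h and 24 h library. RR9 has a near-identical copy in RR10, so their reads may be split uncertainly. RR4 lost the call without 0 h replicate 2 or without 2 h replicate 1 or 2 (adjusted p 0.0138 to 0.0860 over the libraries left out in turn). RR9 lost it without 0 h replicate 1 or 2, any 2 h library, or 24 h replicate 2 (0.0292 to 0.173).

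Markers of shoot and root also shifted between times. The 4 shoot markers, for the Rubisco small subunit and light-harvesting proteins, summed to 6878 to 8345 CPM at 0 h, 8312 to 11223 CPM at 2 h and 9298 to 12156 CPM at 24 h. The 6 root markers summed to 234 to 349 CPM at 0 h, 162 to 197 CPM at 2 h and 198 to 250 CPM at 24 h. The sum is mostly RBCS2, with 6566, 8163 and 6029 CPM at 2 h, against 5213, 5677 and 4864 CPM at 0 h. The light-harvesting markers had lower means at 2 h, with 556, 796 and 494 CPM at 2 h in CAB1R, against 382, 578 and 1237 CPM at 0 h, and 627, 960 and 636 CPM at 2 h in CAB2R, against 479, 628 and 1403 CPM at 0 h. In both, 0 h replicate 3 was the highest of the 9 libraries and the 2 h libraries overlapped those of 0 h. RBCS4, a Rubisco small subunit gene, was called higher at 24 h (log2 fold change 1.05 ± 0.17, edgeR adjusted p = 0.00741). Of the root markers, RCC3 (OS02G0662000) was called lower at 2 h, with 19.4, 31.0 and 24.9 CPM, against 48.1, 48.1 and 76.6 CPM at 0 h (log2 fold change -1.22 ± 0.21, edgeR adjusted p = 0.0287). LSI1 (OS02G0745100), a silicon channel of the root, was also called lower, with 69.4, 78.6 and 80.8 CPM at 2 h, against 172, 115 and 173 CPM at 0 h (-1.03 ± 0.17, edgeR adjusted p = 0.0209). The other way, HKT2;1 had 10.5, 7.89 and 9.70 CPM at 2 h, against 5.10, 4.26 and 2.35 CPM at 0 h (log2 fold change 1.26 ± 0.27, edgeR adjusted p = 0.0689), and PIP2;5 had 3.29, 4.70 and 4.17 CPM at 2 h, against 1.76, 1.46 and 2.57 CPM at 0 h (1.05 ± 0.26, edgeR adjusted p = 0.113). Neither passed the edgeR threshold, and in both the 2 h libraries lay above all 6 others; DESeq2 called 2 root markers higher and 2 lower at 2 h. The identifier listed for NRT2.1 had 0 reads in all 9 libraries. RCC3 lost its 2 h call without any one library other than 0 h replicate 1 or 3 (adjusted p 0.0202 to 0.120), and LSI1 without any one of the 2 h libraries or 24 h replicate 2 or 3 (0.00742 to 0.117). In whole seedlings, fewer cells of a type and less RNA per cell cannot be told apart, and the part of this shift in the members' values was not tested.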

How the data were processed

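Counts per gene were deposited for 9 rice libraries, in a combined table and in 1 sheet per library with counts for either strand and for each strand. Tested on the files, the combined table equals the opposite-strand column. Per the submitters' processing notes, reads were aligned with STAR; the notes name TAIR10 for every sample, and the rice reference is not given in the sources used here. Unmapped reads were 10.8% to 27.3%. The 4 summary lines of each sheet do not count towards depth.

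CPM were computed from column totals, with a pseudocount of 1. The members and all gene lists were chosen with earlier results of these data known. Genes named are the 20 highest scores, the 5 members with the most reads at 2 h, members in lists, neighbours in identifier order, the genes at the threshold, and up to 4 non-members per list, preferring genes called at 2 h and otherwise those with the most reads. Named outside this rule, after their values were seen, were OS06G0146800, OS04G0244800, OS02G0802500, OS08G0249000, OS05G0407100, OS02G0208300 and OS01G0248500, for their return, spread or strand share, and the list genes ABA8OX1, ABA8OX2, PP2C09, PP2C51, PP2C53, PP2C68, NCED5, HSFA2A, LHY, PRR73, WRKY8, WRKY28, WRKY69, NAC10, RR1, RR10, RBCS4, CAB1R, CAB2R, HKT2;1, PIP2;5 and NRT2.1. The clock genes PRR95, LUX, PRR1 and PRR59 were also named after their values were seen. Grouping by product, protein identity and promoter motifs was not analysed here. The fit used edgeR 4.0.16 in R 4.3.3 (filterByExpr, TMM factors 0.969 to 1.04, quasi-likelihood test, two-sided, all 9 libraries, Benjamini-Hochberg adjustment over 24999 genes, calls at an adjusted p below 0.05); DESeq2 1.42.0 was an alternative. The script was tested on simulated data. Each SE was taken as log2 fold change over the square root of its F, without sign. Intervals cover counting error only. No 2 libraries were identical.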

Additional observations from a re-analysis of the deposited data

How the results depend on the processing

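Which genes enter the group depends on the settings most near the threshold. Of 18 other selections, those with a pseudocount of 0.5 or 5 kept 97 and 88 of the 100 members, a minimum of 2 or 10 CPM at 2 h kept 82 and 69, TMM scaling kept 98 and reads of either strand kept 87. Leaving out 1 library kept 80 to 91, and leaving out replicate 1, 2 or 3 at every time (chosen after seeing the data) kept 75, 76 and 75. In every selection 30 members stayed, 12 of them among the 20 highest scores. Genes called at 2 h numbered 228 in the reported fit, 865 by DESeq2, 49 with only the 2 groups in the fit, 73 to 475 with 1 library left out and 35 without the replicate 1 libraries; at 24 h they numbered 2147, 3782, 802, 458 to 5064 and 711. List genes called at 2 h numbered 7, against 27 by DESeq2, 12 with no filter on low counts, 0 with only the 2 groups, 0 without the replicate 1 libraries and 1 to 10 with 1 library left out. At 24 h they numbered 17, against 29 by DESeq2, 7 with only the 2 groups, 8 without the replicate 1 libraries and 2 to 26 with 1 library left out. The cause of these differences was not tested. The labels do not say that a replicate number marks shared material, though replicate 1 shares a library code. Correlations of deviations between same-numbered libraries were -0.21 to 0.31, 5 of 9 over 0.1. Between 2 h and 24 h alone they were 0.19 to 0.25 for the same number and -0.19 to -0.008 for different numbers. These values do not settle whether the numbers pair the samples, and the reported fit left the samples unpaired. With the replicate block, 263 genes and 11 list genes were called at 2 h, and 1940 and 21 at 24 h. Scores of the 20 highest members did not fall below 0 in any of the 18 selections. For 15 list genes at both times, no change of direction occurred where the reported or the alternative fit called the gene. Changes of direction without a call were not counted. The other named genes were not recomputed under these settings. Depth limits the genes below 1 CPM, whose ratios rest on few reads.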
